A study of Mus musculus with 11 samples.

Results

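Expression of the genes that carry the signal of the insulin and insulin-like growth factor (IGF) receptors was measured in mouse pancreatic islets by bulk RNA-seq. The 10 genes, chosen by symbol from the 55536 genes of each count table, were the receptors *Insr* and *Igf1r*, the receptor substrates *Irs1* and *Irs2*, the phosphoinositide 3-kinase (PI3K) subunits *Pik3r1* and *Pik3ca*, the kinases *Akt1* and *Akt2*, and the transcription factors *Foxo1* and *Foxo3*. All 10 were found and all passed the filter on low counts, with 61 to 8248 counts per library. The 11 libraries came from wild-type C57BL/6J females that were 9 weeks old when the study began. Multipara mice had gone through 3 pregnancies and were studied 3 weeks after the last delivery, and virgin mice of matched age had none. Of the libraries, 3 labelled virgin and 4 labelled multipara came from mice injected with S-961, a peptide antagonist of the insulin receptor, and 2 virgin and 2 multipara libraries came from mice that did not receive it. No vehicle-injected group was among these libraries, so that S-961 and the injection itself cannot be told apart. The labels do not say whether treated and untreated islets were isolated or sequenced together, so a batch cannot be told apart from treatment either. The study reports that S-961 made mice of both parity groups glucose intolerant, and the part of this was not tested. The labels do not say whether replicates of a group were separate animals, and the p-values therefore measure only the spread between libraries.

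Insulin and IGF-1 bind related receptor tyrosine kinases, which phosphorylate the IRS proteins. These recruit PI3K, whose lipid product leads to activation of AKT, and active AKT keeps the FoxO transcription factors out of the nucleus. In pancreatic β cells the same proteins take part in growth, survival and the response to insulin that the cells themselves secrete, and *Irs2* is known as a gene that β cell mass depends on in mice. The measurements here are of RNA, not of protein or phosphorylation.

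Depth was 22028507 to 32234146 counts per library. Insulin transcripts (*Ins1*, *Ins2*) made up 13.2% to 20.7% of each S-961 library and 35.3% to 41.4% of each untreated library. The labelled tissue was borne out by its markers, since all 8 β cell markers were detected in every group, with summed levels of 120217 to 225939 CPM with S-961 and 454970 to 612297 CPM without. CPM is counts scaled to a common library size after edgeR's TMM scaling of all 11 libraries together. Most of the summed β cell level was *Ins1* and *Ins2*. Of the 8 markers, 2 were called higher with S-961 and 3 lower in each parity group, where 36.5% (virgin) and 37.6% (multipara) of all genes were called. *Mafa* was at 327 to 796 CPM with S-961 and 183 to 269 CPM without, and *Nkx6-1* at 253 to 363 CPM and 144 to 203 CPM. In the other direction, *Ucn3* was at 278 to 406 CPM with S-961 and 688 to 812 CPM without, and *Ins1* and *Ins2* were also lower. The ranges of *Iapp*, *Slc2a2* and *Pdx1* overlapped. Acinar markers, which come from exocrine pancreas, stood at a summed 120 to 187 CPM in untreated libraries and at 1857 to 12334 CPM with S-961. Libraries also stood apart within their groups. Summed proliferation markers were at 308, 274 and 141 CPM in the libraries labelled multipara S-961 1 to 3, but at 13.1 CPM in the library labelled multipara S-961 4, close to the 10.4 to 29.1 CPM of the virgin S-961 libraries. Without S-961 they were at 91.0 CPM in multipara untreated 1 and at 6.68 to 16.9 CPM in the other untreated libraries. The series title names an impaired proliferative capacity after multiparity. The study also reports cell cycle genes, *Cdk1* and *Cenpf* among them, as lower in multipara islets under S-961. Here the 8 proliferation markers had a median log2 fold change of 4.04 in the direction of the libraries labelled multipara. Of these 8, the test of edgeR called 0, and that of DESeq2 called 5 as higher and 0 as lower. Whether the parity labels of the S-961 libraries are right was not settled by these data, and every parity direction and per-parity value under S-961 below is given by label. Summed macrophage markers were at 703 CPM in multipara untreated 1 and at 37.0 to 102 CPM in the other 10 libraries. Islet RNA is a bulk sample, in which fewer cells of a type and less RNA per cell cannot be told apart.

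Both receptor substrate genes carried a short insulin response element upstream of their start, and their upstream sequences are shown because these were the members with the largest differences between treated and untreated islets. The 250 bases before the RefSeq start sites (GRCm38.p6) are written 5′ to 3′ on the strand of the gene, with capitals for the element searched, CAAAACA, which reads TGTTTTG on this strand. The *Irs1* sequence lies at chr1:82291440-82291689 and the *Irs2* sequence at chr8:11008930-11009179, both from the minus strand.
Irs1: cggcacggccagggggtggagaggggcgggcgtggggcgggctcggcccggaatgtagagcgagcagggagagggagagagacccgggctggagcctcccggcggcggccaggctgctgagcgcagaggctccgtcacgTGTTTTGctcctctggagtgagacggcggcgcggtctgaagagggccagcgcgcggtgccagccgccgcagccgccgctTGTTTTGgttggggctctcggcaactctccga
Irs2: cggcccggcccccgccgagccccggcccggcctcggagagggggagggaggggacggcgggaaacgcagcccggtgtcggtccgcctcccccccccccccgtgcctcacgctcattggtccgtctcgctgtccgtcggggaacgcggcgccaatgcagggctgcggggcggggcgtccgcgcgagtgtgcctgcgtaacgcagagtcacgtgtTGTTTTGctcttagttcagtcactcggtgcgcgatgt
In *Irs1* the element occurred at bases -111 to -105 and -32 to -26 from the start, and in *Irs2* at -37 to -31. It was present in 6.28% of 32851 mouse promoter windows of 300 bases (250 before and 50 after the start, both strands searched). RefSeq gave 14 such windows for 9 of the members, all but *Insr*. A FoxO element, GTAAACA, was found in 1 of these 14 windows, at -161 to -155 of *Akt1*, against 3.65% of all windows. A cAMP response element, TGACGTCA, was found in none of the 14, against 1.79% of all windows. The member windows were rich in G and C, with a median of 62.3% against 52.7% for all promoters, and held a median of 24 CpG dinucleotides against 7. A match of letters describes the sequence and does not show that a factor was bound. The RefSeq starts lie 23 bases (*Irs1*) and 471 bases (*Irs2*) upstream of those in the GENCODE M21 annotation.

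S-961 blocks the product of *Insr*, and expression of the pathway was compared between islets of injected and untreated mice. Expression of the receptors did not differ detectably, that of the substrates and of the regulatory PI3K subunit was higher with S-961, and that of *Akt2*, *Foxo1* and *Foxo3* was lower. Averaged over virgin and multipara mice, 3 members were higher and 3 lower with S-961 at an adjusted p-value below 0.05. The other 4 did not pass the test. Changes were widespread in these libraries, since 52.1% of the 17996 genes tested passed the same test, 26.1% higher and 25.9% lower, so that 6 of 10 is close to the background. The median log2 fold change was 0.01 over the members and -0.01 over all genes. By CPM, 3 members had all 7 S-961 libraries above all 4 untreated libraries and 1 had them all below, where 36.4% of all genes had such separate ranges (17.4% above, 19.1% below). All adjusted p-values come from the quasi-likelihood test of edgeR and were adjusted over all genes tested by the Benjamini-Hochberg method.

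**Figure D1:**
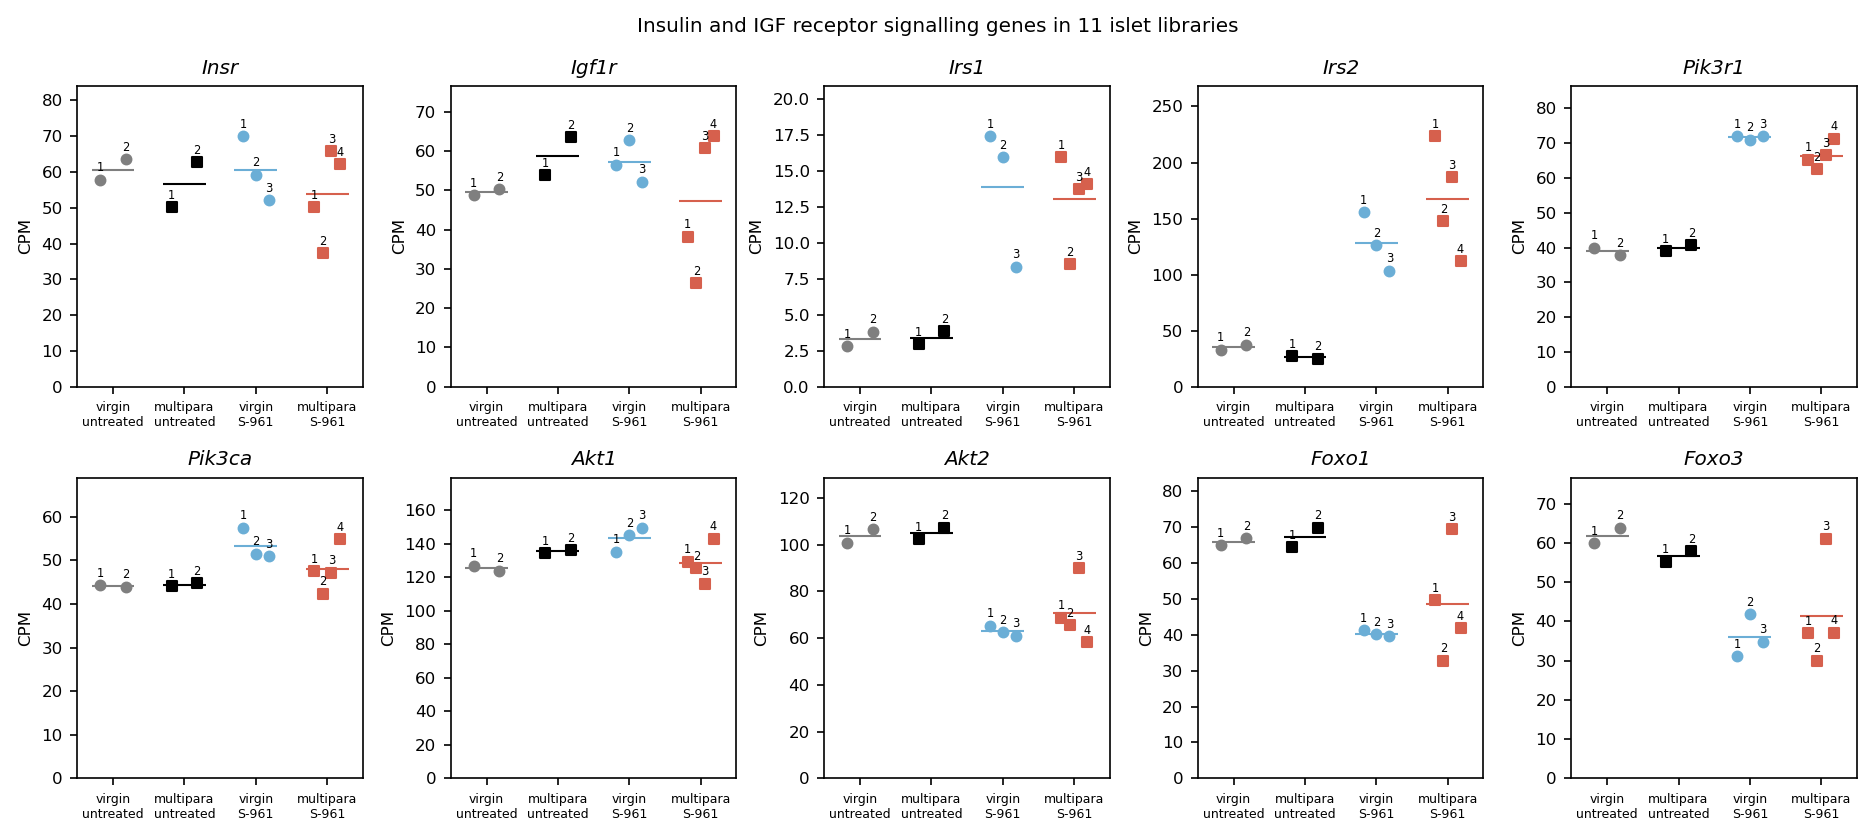
CPM (vertical axes, from 0) of the 10 genes in each library, with replicate numbers beside the points, by group, and horizontal lines at group means. *Irs1*, *Irs2* and *Pik3r1* have all 7 S-961 libraries above the 4 untreated ones, *Akt2* has them all below, and multipara S-961 3 lies among the untreated libraries for *Foxo1* and *Foxo3*.

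*Insr* encodes the insulin receptor, the target of S-961, and lies at chromosome 8, 3122061 to 3279617 (GRCm38, GENCODE M21, as for all genes below). Its level was 70.0, 59.2 and 52.1 CPM in virgin S-961 1 to 3, and 50.2, 37.2, 65.7 and 62.2 CPM in multipara S-961 1 to 4. Untreated virgin libraries had 57.8 and 63.5 CPM, and untreated multipara libraries 50.2 and 62.8 CPM. The ranges overlapped throughout, and the library lowest of all was multipara S-961 2. The log2 fold change with S-961 was -0.04 ± 0.15 (SE, adjusted p = 0.856), with a 95% interval of 0.769 to 1.24 for the fold.

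*Igf1r*, on chromosome 7 (67952827 to 68233668), encodes the IGF-1 receptor. It was at 56.5, 62.8 and 52.2 CPM in virgin S-961 1 to 3, and at 38.2, 26.3, 60.7 and 63.8 CPM in multipara S-961 1 to 4. The untreated libraries had 48.8 and 50.2 CPM in virgin and 53.8 and 63.5 CPM in multipara. Multipara S-961 1 and 2 were below every other library, while the remaining S-961 libraries were in or near the untreated range. The log2 fold change was -0.05 ± 0.21 (SE, adjusted p = 0.848), with an interval of 0.700 to 1.33 for the fold.

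*Irs2* had the largest fold among the members when averaged over parity groups on the TMM scale. It encodes a substrate that both receptors phosphorylate and lies on chromosome 8 (10984681 to 11008458). With S-961 its level was 156, 126 and 104 CPM in virgin 1 to 3, and 224, 148, 187 and 112 CPM in multipara 1 to 4. Without S-961 it was 33.2 and 37.6 CPM in virgin, and 27.5 and 25.1 CPM in multipara. The lowest S-961 library, virgin 3, was 2.75-fold above the highest untreated library, so that the ranges were far apart. Mean levels were 151 ± 42.7 CPM (SD, n = 7) and 30.9 ± 5.63 CPM (SD, n = 4), and the fold was 4.81 (log2 2.27 ± 0.20, SE, adjusted p = 1.2e-05). A called rise of at least 4-fold was found for 3.65% of the genes tested.

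*Irs1* is the related substrate, encoded on chromosome 1 (82233101 to 82291416), and was the member with the lowest level. It was at 17.4, 15.9 and 8.34 CPM in virgin S-961 1 to 3, and at 15.9, 8.52, 13.7 and 14.1 CPM in multipara S-961 1 to 4. Untreated libraries had 2.83 and 3.83 CPM in virgin and 2.95 and 3.84 CPM in multipara. Virgin S-961 3 and multipara S-961 2 were the lowest of the treated libraries, and both remained above every untreated library. The fold was 4.01, with a 95% interval of 2.72 to 5.93 (adjusted p = 9.7e-05). *Irs1* shares 2822 exonic bases with *Gm9747* on the opposite strand. *Gm9747* had 126 to 226 counts per library with S-961 and 116 to 214 without, beside 258 to 588 and 61 to 95 for *Irs1*. In every untreated library *Gm9747* had more counts than *Irs1*. The library kit keeps strand, but the strand setting of the counting was not given in the sources used here, so reads of this pair are uncertain.

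*Pik3r1*, on chromosome 13 (101680563 to 101768217), encodes the p85α regulatory subunit, which binds phosphorylated IRS proteins and holds the catalytic subunit. The S-961 libraries had 72.0, 71.0 and 72.0 CPM in virgin 1 to 3, and 65.3, 62.5, 66.5 and 71.3 CPM in multipara 1 to 4. The untreated libraries had 40.0 and 37.8 CPM in virgin, and 38.9 and 40.8 CPM in multipara. Levels within a treatment were tight and the treatments were separate. The fold was 1.75 (log2 0.81 ± 0.07, SE, adjusted p = 1.3e-05), a smaller difference than that of *Irs1* but a more precise value.

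*Pik3ca* encodes the p110α catalytic subunit and lies on chromosome 3 (32397671 to 32468486). Its level was 51.0 to 57.5 CPM in virgin S-961, 42.4 to 54.8 CPM in multipara S-961 and 44.0 to 44.7 CPM in the untreated libraries. Multipara S-961 2 was the only treated library below the untreated range. The log2 fold change of 0.19 ± 0.09 (SE) did not pass (adjusted p = 0.0803), but it did without multipara S-961 2 (0.25, adjusted p = 0.021).

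Of the genes for AKT kinases, *Akt2* was lower with S-961 and *Akt1* did not pass. *Akt2*, on chromosome 7 (27591552 to 27640826), encodes the form best known for glucose handling in insulin-responsive tissues. It was at 65.3, 62.6 and 61.0 CPM in virgin S-961 1 to 3, and at 68.7, 65.6, 89.9 and 58.4 CPM in multipara S-961 1 to 4. Untreated libraries had 101 and 107 CPM in virgin and 102 and 107 CPM in multipara. All treated libraries were below all untreated ones, and multipara S-961 3 came nearest to them. The log2 fold change was -0.65 ± 0.11 (SE, adjusted p = 0.000622), a level 1.56-fold lower.

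*Akt1*, on chromosome 12 (112653821 to 112674884), encodes the more broadly expressed form. It was at 135 to 150 CPM in virgin S-961, 116 to 143 CPM in multipara S-961 and 124 to 136 CPM in untreated islets. These ranges overlapped, and the log2 fold change was 0.06 ± 0.08 (SE, adjusted p = 0.578), with an interval of 0.917 to 1.18 for the fold.

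*Foxo1* (chromosome 3, 52268336 to 52353221) and *Foxo3* (chromosome 10, 42181841 to 42276755) encode FoxO factors that AKT phosphorylates. *Foxo1* was at 41.2, 40.1 and 39.6 CPM in virgin S-961 1 to 3, at 49.7, 32.7, 69.4 and 41.9 CPM in multipara S-961 1 to 4, and at 64.4 to 69.8 CPM in the untreated libraries. *Foxo3* was at 31.2, 41.8 and 34.8 CPM in virgin S-961, at 37.1, 30.0, 61.1 and 37.1 CPM in multipara S-961, and at 55.2 to 63.9 CPM in untreated islets. For both genes 6 of the 7 S-961 libraries were below every untreated library, and multipara S-961 3 alone was within the untreated range. The log2 fold changes were -0.59 ± 0.16 for *Foxo1* (SE, adjusted p = 0.011) and -0.62 ± 0.17 for *Foxo3* (SE, adjusted p = 0.0105). Summed stromal markers were highest in that same library, at 278 CPM, and their part in its *Foxo1* and *Foxo3* levels was not tested.

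The scaling of libraries bears on the smaller differences, since insulin transcripts took a larger share of the untreated libraries. With total counts alone the median of all 17996 genes moved to a log2 fold change of 0.51, and the calls went from 4704 higher and 4664 lower to 8839 higher and 1818 lower. *Akt2* was then at -0.11, *Foxo1* at -0.05 and *Foxo3* at -0.08, none of which passed, while *Insr* at 0.50 (adjusted p = 0.0335), *Pik3ca* at 0.72 and *Akt1* at 0.58 passed as higher. Relative to that median, *Akt2* was at -0.63, *Foxo1* at -0.56, *Foxo3* at -0.59 and *Insr* at -0.01. With total counts taken without *Ins1* and *Ins2*, where the median was 0.10, *Foxo1* at -0.47 (adjusted p = 0.0566) and *Foxo3* at -0.50 (adjusted p = 0.0533) did not pass and *Pik3ca* did, at 0.30 (adjusted p = 0.0171). *Irs2*, *Irs1* and *Pik3r1* were higher under each of the 4 scalings.

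**Figure D2:**
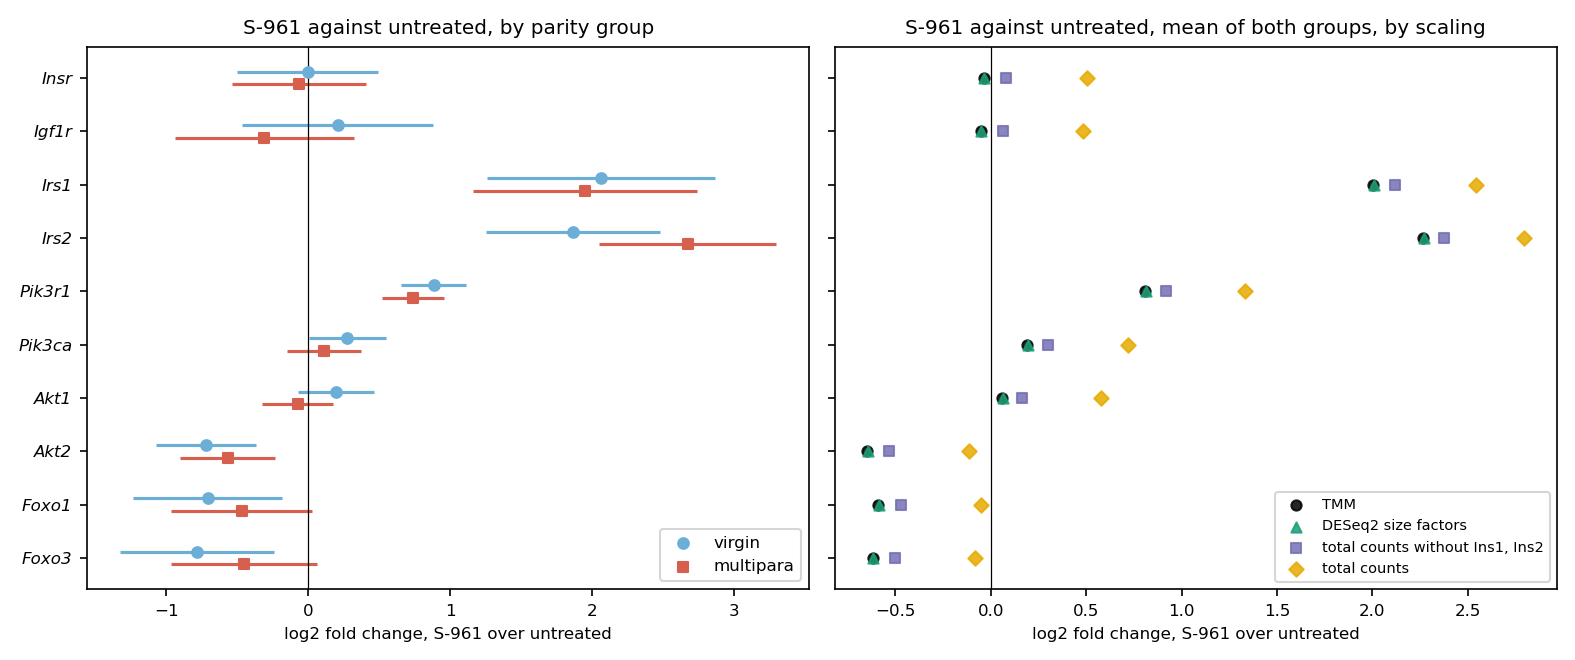
Log2 fold change of S-961 over untreated islets (horizontal axes) for each gene, by parity group with 95% intervals (left) and averaged over both groups under 4 scalings of the libraries (right). *Irs1*, *Irs2* and *Pik3r1* lie above 0 throughout, *Akt2*, *Foxo1* and *Foxo3* lie near 0 with total counts alone, and *Insr* changes sign there, from -0.04 to 0.50.

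Acinar markers moved with S-961, and 12 of 12 passed as higher with a median log2 fold change of 5.73. In the S-961 library with the lowest summed acinar level, virgin 3 at 1857 CPM, *Irs2* was 2.75-fold, *Irs1* 2.17-fold and *Pik3r1* 1.77-fold above the highest untreated library. In the same library *Akt2*, *Foxo1* and *Foxo3* were at 0.605, 0.615 and 0.631 of the lowest untreated library. Virgin 3 was also the lowest S-961 library for *Irs2* and *Irs1*. In order of rising acinar level, the S-961 libraries had *Irs2* at 104, 112, 156, 126, 187, 148 and 224 CPM. In the same order *Irs1* was at 8.34, 14.1, 17.4, 15.9, 13.7, 8.52 and 15.9 CPM. The relation of either gene to acinar level within S-961 was not tested. When the summed acinar level was added to the fit as a covariate, none of the 10 members passed edgeR's test in any comparison (*Pik3r1* had an unadjusted p-value of 0.0118 on average), and 3 genes of the 17996 did in the average over both parity groups. *Irs2* was then at a log2 fold change of 0.19 ± 0.66 (SE), *Irs1* at 0.26 ± 1.06 and *Pik3r1* at 1.08 ± 0.35 (SE, adjusted p = 0.532). The acinar level and the treatment were separate between all libraries, so that their parts cannot be told apart by this fit. This covariate was chosen after seeing the data.

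**Figure D3:**
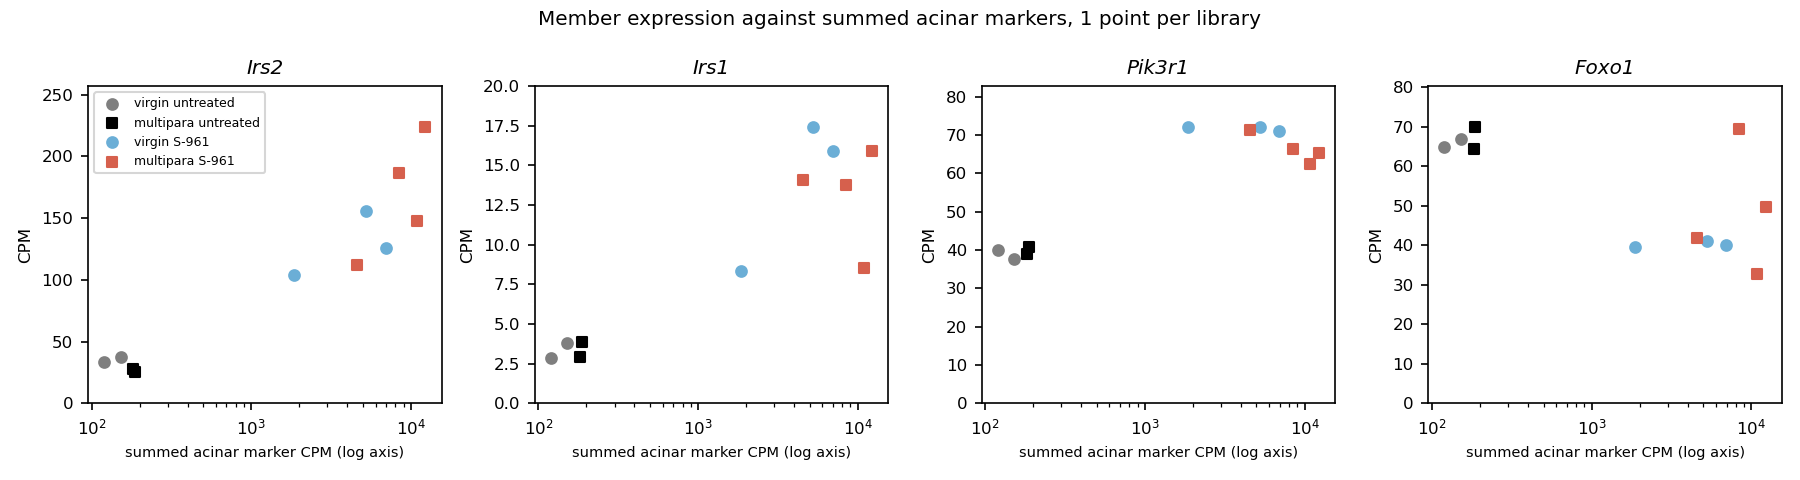
CPM of 4 genes (vertical axes, from 0) against the summed CPM of 12 acinar markers (horizontal log axes), with 1 point per library. The untreated libraries lie at 120 to 187 CPM of acinar markers and the S-961 libraries at 1857 to 12334 CPM. In order of rising acinar level the S-961 libraries have *Pik3r1* at 72.0, 71.3, 72.0, 71.0, 66.5, 62.5 and 65.3 CPM. The relation of *Pik3r1* to acinar level within S-961 was not tested. *Irs2* is at 104 CPM at their lowest acinar level and 224 CPM at their highest, without a steady order between.

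The response was next compared between parity groups. In virgin islets S-961 gave the same 6 calls, against a background of 36.5% of genes (18.8% higher, 17.6% lower). In multipara islets it gave 4 calls, 3 higher and 1 lower, against 37.6% (18.2% higher, 19.4% lower). *Irs2* was 3.63-fold higher in virgin (log2 1.86 ± 0.28, SE, adjusted p = 0.000764) and 6.36-fold higher in multipara islets (log2 2.67 ± 0.28, SE, adjusted p = 0.000149). The difference of these effects, 0.81 ± 0.36 on the log2 scale, did not pass (unadjusted p = 0.0473, adjusted p = 0.761). *Irs1* was at log2 2.06 and 1.95, and *Pik3r1* at 0.88 and 0.74, in virgin and multipara islets respectively. *Akt2* was at -0.72 in virgin (adjusted p = 0.00556) and -0.57 in multipara islets (adjusted p = 0.0135). *Foxo1* and *Foxo3* passed in virgin islets at -0.71 (adjusted p = 0.0374) and -0.78 (adjusted p = 0.0291). In multipara islets they were at -0.47 (adjusted p = 0.121) and -0.45 (adjusted p = 0.149). Without multipara S-961 3 they passed there as well, at -0.69 and -0.70. The virgin calls were also sensitive to single libraries, as *Foxo1* did not pass without any of virgin S-961 1, 2 or 3, multipara S-961 1, or virgin untreated 1 or 2 (adjusted p = 0.0528 to 0.154). *Foxo3* did not pass without virgin S-961 1 or 3, or virgin untreated 1 or 2 (adjusted p = 0.0668 to 0.143). The *Akt2* call was lost in virgin islets without virgin untreated 2 (adjusted p = 0.0526) and in multipara islets without multipara untreated 1 or 2 (adjusted p = 0.0607 and 0.0805). With total counts taken without *Ins1* and *Ins2*, *Foxo1* (adjusted p = 0.107) and *Foxo3* (adjusted p = 0.0854) did not pass in virgin islets, nor *Akt2* in multipara islets (adjusted p = 0.0703), and *Pik3ca* passed in virgin islets (adjusted p = 0.0439). The interaction test called 0 of the 10 members and 0 of 17996 genes (1179 at an unadjusted p-value under 0.05, and with DESeq2 61 higher and 20 lower, without a member among them), so that no member was shown to respond differently by parity.

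Within S-961, no member passed the test between multipara and virgin islets. Of 16784 genes tested, edgeR called 0, or a background of 0%, with 1629 at an unadjusted p-value under 0.05. DESeq2 called 358 higher and 11 lower, with no member among them. *Irs2* had the lowest p-value of the 10, with a log2 fold change of 0.40 ± 0.24 (SE, unadjusted p = 0.128, adjusted p = 0.63), and its multipara values of 112 to 224 CPM overlapped the virgin values of 104 to 156 CPM. The interval for the fold reached from 0.907 to 1.93, and that of *Foxo1* from 0.850 to 1.75. No member had separate ranges, where 8.87% of all genes did. Without multipara S-961 4, the library whose proliferation markers were near the virgin level, 447 genes were higher and 78 lower, and *Irs2* was at 0.56 (adjusted p = 0.212).

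In untreated islets the comparison of 2 with 2 libraries also gave 0 calls among the members and 0 of 15812 genes (0%), with 889 at an unadjusted p-value under 0.05 and 22 higher and 34 lower with DESeq2. The multipara libraries had *Irs2* at 25.1 and 27.5 CPM and the virgin libraries at 33.2 and 37.6 CPM (log2 -0.42 ± 0.12, SE, adjusted p = 0.719). They had *Igf1r* at 53.8 and 63.5 CPM against 48.8 and 50.2 CPM (log2 0.25 ± 0.09, SE, adjusted p = 0.719). These were the only members with an unadjusted p-value under 0.05. Ranges were separate for 4 members, 2 above and 2 below, where 36.0% of all genes had separate ranges (17.3% above, 18.8% below).

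Ratios of paired genes within a library do not depend on scaling. The ratio of *Pik3r1* to *Pik3ca* counts was 1.25 to 1.47 in S-961 libraries and 0.860 to 0.911 in untreated ones, without overlap. Its log2 difference, averaged over parity groups, was 0.62 (exact two-sided permutation within parity, p = 0.00667, the smallest that 150 arrangements allow, and 0.0333 adjusted over 5 ratios), with 0.61 in virgin and 0.63 in multipara islets. The ratio of *Akt2* to *Akt1* was 0.408 to 0.774 with S-961 and 0.761 to 0.861 without. It overlapped in 1 library, multipara S-961 3, and the log2 difference was -0.71 (exact permutation p = 0.0133, adjusted 0.0333). *Irs2* over *Irs1* (0.27, exact permutation p = 0.333), *Insr* over *Igf1r* (0.04, exact permutation p = 0.72) and *Foxo3* over *Foxo1* (-0.03, exact permutation p = 0.793) did not pass. Leaving out any library other than multipara S-961 3 ended both calls (adjusted exact permutation p = 0.05 to 0.1 for *Pik3r1* over *Pik3ca* and 0.05 to 0.111 for *Akt2* over *Akt1*), with fewer arrangements to draw on, while the log2 differences stayed at 0.60 to 0.65 and -0.79 to -0.64.

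**Figure D4:**
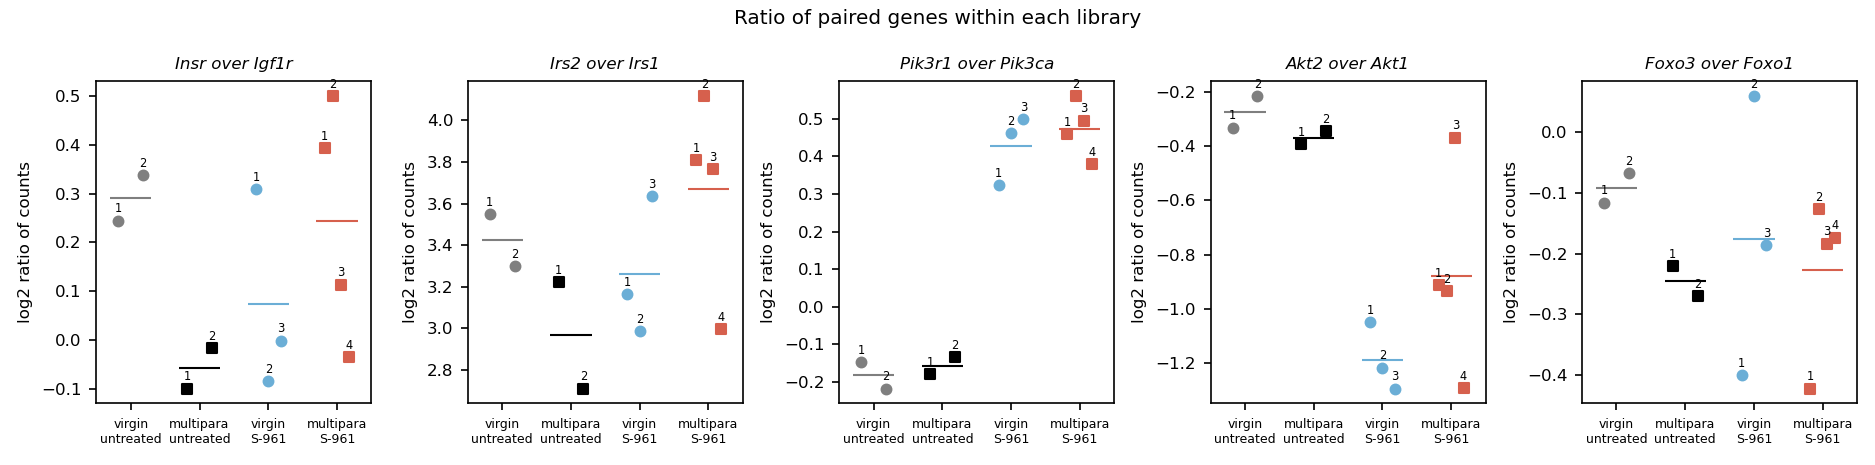
Log2 ratio of the counts of 5 gene pairs (vertical axes, each with its own range) in every library by group, with replicate numbers and group means as lines. *Pik3r1* over *Pik3ca* separates the treatments, with linear ratios of 1.25 to 1.47 against 0.860 to 0.911, and *Akt2* over *Akt1* does so apart from multipara S-961 3.

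Levels were compared between genes as CPM per kilobase of exon. In untreated islets *Akt1* was highest at 31.8 ± 1.46 (SD, n = 4) and *Akt2* next at 14.6 ± 0.440, followed by *Foxo3* (7.82) and *Foxo1* (7.68), which overlapped each other. *Irs2* (4.88) overlapped *Pik3ca* (4.87). *Insr* (4.26) overlapped *Pik3r1* (3.91), and *Pik3r1* overlapped *Igf1r* (3.22). *Irs1* was lowest, at 0.368 ± 0.0600, and separate from all others. With S-961 *Irs2* stood second, at 23.9 ± 6.75 (SD, n = 7), and overlapped *Akt1* at 32.9 ± 2.94. *Akt2* came next at 9.45, separate from *Irs2* above it and *Pik3r1* (6.81) below it. From *Pik3r1* down to *Irs1* (1.47) every neighbour in the order overlapped.

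The genes whose CPM followed a member most closely over the 11 libraries were found by the root mean square difference of centred log2 CPM among 11286 genes. For *Insr* they were *Ttc3* (0.0762), *Patj* (0.0906) and *Rasgrf1* (0.0955). For *Igf1r* they were *Dnajc13* (0.162), *Shc2* (0.164) and *Glp1r* (0.172), the receptor for glucagon-like peptide 1. *Glp1r* was lowest in the same libraries as *Igf1r*, at 310 and 285 CPM in multipara S-961 1 and 2 against 447 to 711 CPM elsewhere. For *Irs2* they were *Cebpb* (0.259), a transcription factor of the C/EBP family, *Scn3a* (0.272) and *Slc39a10* (0.295). *Cebpb* was at 21.9 to 36.6 CPM with S-961 and 4.85 to 9.03 CPM without it. The libraries share their treatment and acinar levels, and these are descriptions of likeness only.

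Other genes of the pathway were taken from 10 lists holding 106 genes, of which 101 were tested. With S-961, averaged over parity, 29 were higher and 25 lower, together 53.5% against the background of 52.1%. With total counts alone the split was 57 higher and 8 lower, and with the acinar covariate none passed. In the parity comparisons no listed gene passed edgeR's test, with 7 genes at an unadjusted p-value under 0.05 and 1 call by DESeq2 within S-961, and 9 genes and 1 call in untreated islets. Leaving out multipara S-961 4 gave 3 calls among the listed genes within S-961, and leaving out multipara untreated 1 or 2 gave 2 or 17 of 100 in untreated islets. Of the 40 genes the lists gave for naming, 6 with small decreases took the opposite sign with total counts alone, and among the genes described below the decreases of *Grb14* (-0.084), *Tsc1* (-0.055), *Klf15* (-0.49), *Bcl6* (-0.59), *Inpp5d* (-0.66) and *Pik3cd* (-0.56) did not pass on that scale. Of the 40, 7 lost the call without at least 1 library.

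Over all genes tested, 26.1% were higher and 25.9% lower in this comparison, and the counts of each list are to be read against these shares. Among kinases beside AKT, 7 of 11 were higher and 1 was lower, with a median log2 fold change of 0.48 against -0.01 for all genes. With the acinar covariate 0 of these 11 were called. *Pdpk1*, which encodes the kinase that phosphorylates the AKT activation loop, was at 66.0 to 98.2 CPM with S-961 and 38.1 to 47.9 CPM without (2.02-fold). *Rictor*, for a subunit of mTOR complex 2, was 2.28-fold and *Rps6kb1*, for S6 kinase 1, was 1.89-fold higher. *Mapkap1*, for another subunit of mTOR complex 2, was 1.24-fold lower on the TMM scale, but at a log2 fold change of 0.21 with total counts and without a call when virgin untreated 2 or multipara untreated 1 was left out.

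Of 11 other PI3K genes, 3 were higher and 4 lower. *Pik3c2a*, a class II PI3K, was at 57.6 to 88.1 CPM with S-961 and 16.6 to 24.5 CPM without (3.69-fold), and *Pik3r3*, a regulatory subunit gene, was 1.64-fold higher. *Pik3cd*, the leukocyte form of the catalytic subunit, was called lower (adjusted p = 0.0491), but its ranges overlapped and the untreated mean rested on 28.4 CPM in multipara untreated 1 against 3.84 to 5.81 CPM in the other untreated libraries. Without that library it did not pass (adjusted p = 0.972). The *Pik3cd* call was lost in 9 of the 11 fits that left out 1 library, multipara untreated 1 included. *Inpp5d*, a leukocyte lipid phosphatase of the inhibitor list, had the same library at 25.4 CPM against 6.29 to 6.73 CPM, and its call was lost without it (adjusted p = 0.226), as it was without virgin untreated 1 or 2. This was the library with 703 CPM of macrophage markers, whose part in both differences was not tested.

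Of 19 inhibitors, 5 were higher and 4 lower. *Socs3*, which encodes a feedback inhibitor of cytokine and insulin receptor signalling, was at 49.7 to 153 CPM with S-961 and 20.5 to 34.7 CPM without (3.27-fold higher). *Phlpp1* and *Phlpp2*, for phosphatases that act on AKT, were 1.87-fold and 1.44-fold higher. *Trib3*, a pseudokinase gene known to bind AKT and to be induced by the integrated stress response, was at 1.03 to 5.40 CPM with S-961 and 21.8 to 34.1 CPM without (13.8-fold lower, adjusted p = 2.1e-05). *Grb14*, for an adaptor that inhibits the insulin receptor, was 1.53-fold lower. The median of the inhibitor list was 0.00, and its 9 calls of 19 are near the share of 52.1% over all genes.

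Of 13 genes listed under AKT and mTORC1 substrates, 4 were higher and 4 lower. The list also holds *Rheb*, for an activator of mTORC1, and *Rps6*, whose product S6 kinase phosphorylates. *Rheb* is among the higher and *Rps6* among the lower genes. The *Rheb* call was lost without virgin untreated 2 or multipara untreated 1 (adjusted p up to 0.0562 in edgeR's test). *Tbc1d4*, for a GTPase-activating protein that AKT phosphorylates, was 2.14-fold higher, and *Gsk3b* was 1.67-fold higher. *Eif4ebp1*, for a translation repressor that mTORC1 inactivates, was at 9.51 to 20.3 CPM with S-961 and 36.6 to 59.7 CPM without (3.62-fold lower). *Rps6*, for ribosomal protein S6, was 2.55-fold lower, although ribosomal protein genes have near-identical copies among which reads are divided, so its value is uncertain. *Tsc1* was 1.51-fold lower.

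Of 18 FoxO target genes 4 were higher and 6 lower, also near the 52.1% of all genes called, with a median of -0.02. *Txnip*, for a thioredoxin inhibitor, was at 686 to 1136 CPM with S-961 and 426 to 528 CPM without (2.16-fold higher), and *Cited2* was 2.49-fold higher. *Fbxo32*, for the ubiquitin ligase atrogin-1, was 2.44-fold lower, *Bcl6* 2.15-fold lower and *Klf15* 2.03-fold lower. Of the other FoxO factors, *Foxo4* was at 13.1 to 17.2 CPM with S-961 and 30.9 to 33.5 CPM without (2.18-fold lower), and *Foxo6* did not pass.

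Of 4 ligand genes, *Ins1* and *Ins2* were lower, 3.07-fold and 3.41-fold, and of 8 receptors and binding proteins *Igf2r* was 1.41-fold higher and *Igfals* 1.29-fold lower. The *Igf2r* call was lost without virgin untreated 1 or 2 or multipara untreated 1 (adjusted p up to 0.0642). Adaptors had 3 of 8 higher, among them *Crk* (1.75-fold) and *Shc1* (1.35-fold), and 1 lower, *Grb2* (1.33-fold). In the Ras and ERK arm, 2 of 7 were higher, the exchange factor genes *Sos1* (1.90-fold) and *Sos2* (1.84-fold), and *Mapk3* was 1.28-fold lower. Folds in these lists are on the TMM scale, on which the median of all genes was at -0.01, and *Igfals*, *Grb2* and *Mapk3* were at 0.15, 0.11 and 0.16 on the log2 scale with total counts alone.

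**Figure D5:**
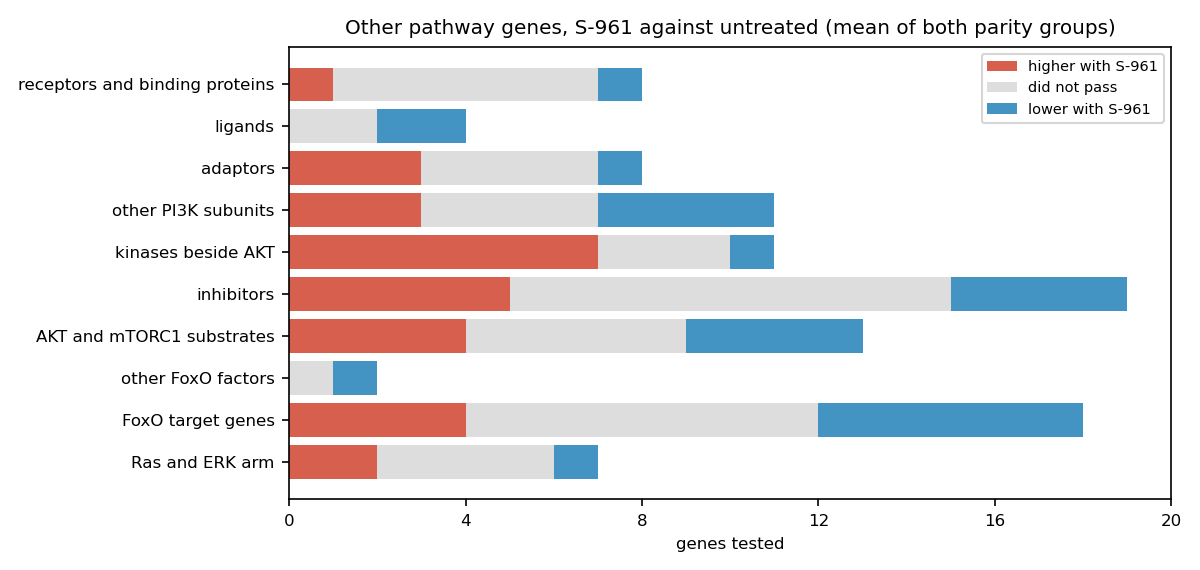
Number of tested genes (horizontal axis) in each of 10 lists of other pathway genes that were higher, lower or did not pass edgeR's test at an adjusted p-value under 0.05, S-961 against untreated islets. Kinases beside AKT have 7 of 11 higher, and all 101 genes together have 29 higher and 25 lower on the TMM scale, against 57 and 8 with total counts alone.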

How the data were processed

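Polyadenylated RNA of islets was made into strand-specific libraries with the TruSeq Stranded mRNA kit. STAR, RSEM and the builds GRCm38 and mm10 are named in the submitters' processing notes, without versions. The authors deposited 1 table per library of expected counts per gene, not normalized. Each expected count, an estimated count that need not be whole, was rounded here. Between 4449 and 5162 genes per library had values that were not whole, as arises when reads are divided between genes. Coordinates were taken from GENCODE M21, which matched 55450 of 55536 genes.

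Tests used edgeR 4.0.16 in R 4.3.3 (TMM, filterByExpr with minimum count 10 and minimum total 15, quasi-likelihood F-test), with Benjamini-Hochberg adjustment over all genes and a threshold of 0.05. Each parity comparison used only libraries of 1 treatment, and all other comparisons used the 11 libraries. Gene ratios were tested by exact permutation. Alternatives were DESeq2 1.42.0, other scalings, no filter, a replicate block, each library left out and 2 settings added after seeing the data, an acinar covariate and removal of multipara S-961 4 and multipara untreated 1. The code was tested on simulated data. Intervals are 95%. The members and gene lists were chosen with earlier results of these data known. From each pathway list up to 3 passing genes per direction with the largest fold and a mean log2 CPM of at least 2 were eligible to be named. Protein sequences were not used here.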

Additional observations from a re-analysis of the deposited data

How the results depend on the processing

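Of 1050 recomputed log2 fold changes of the members, 993 kept their direction and their side of the threshold or were not called in either fit, 42 lost the call, 11 gained it and 4 changed sign with a call in either fit. The 4 were *Irs2* in virgin islets with the acinar covariate (-0.075), and with total counts *Akt1* (0.50) and *Akt2* (0.027) in multipara islets and *Insr* on average (0.50). With the acinar covariate 0 members were called in virgin islets, in multipara islets and on average, against 3, 0 and 3 of 17996 genes. With a library left out, 3 to 6 members were called in virgin islets, the 3 without virgin untreated 2, where *Akt2* had an adjusted p-value of 0.0526 in edgeR's test. Fewer of all genes were also called in that fit, 1548 higher and 1505 lower of 19058, against 3390 and 3172 of 17996. In multipara islets 3 to 6 members were called with a library left out, beside 1585 to 3659 genes higher and 2033 to 3792 lower. On average 6 to 7 members were called, beside 3806 to 4980 genes higher and 3694 to 4990 lower. The log2 ratio difference ran from 0.60 to 0.65 for *Pik3r1* over *Pik3ca* and from -0.79 to -0.64 for *Akt2* over *Akt1* with a library left out, and the call was lost in most of these fits, which have fewer arrangements. With both doubted libraries left out, the same 6 members were called on average, and in multipara islets *Akt2* no longer was (-0.52, adjusted p = 0.0856 in edgeR's test). Over all 18847 genes that setting called 4113 higher and 3753 lower on average, and 1710 and 1922 in multipara islets.

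Whether replicate numbers pair the libraries was not settled, since groups of 2 to 4 libraries are too small for correlations to decide it. With S-961, same-numbered virgin and multipara libraries correlated at 0.0563, 0.0116 and 0.0931. Multipara S-961 1 and 3 correlated best with their own number and multipara S-961 2 did not. Untreated libraries of the same number correlated at 0.280. With a replicate block the number of members called was 0 in each parity comparison and in the interaction. It was 6 in virgin islets, 4 in multipara islets and 6 on average. Over all 17996 genes the block gave 3135 higher and 2836 lower in virgin islets, 2839 and 2791 in multipara islets, and 4260 and 4079 on average. The genes called for parity within S-961 went from 0 to 309 higher and 33 lower, and for the interaction from 0 to 14 higher and 20 lower. Across all genes, parity without S-961 gave 22 higher and 31 lower without multipara untreated 1, and 1483 higher and 252 lower without multipara untreated 2. The interaction gave 19 higher and 26 lower without multipara S-961 4, 32 lower without multipara untreated 2, and 31 higher and 19 lower without both doubted libraries. With no filter 3 genes were called for parity without S-961 and 4 for the interaction. S-961 in virgin islets gave 1790 higher and 1713 lower without virgin untreated 1, and 1548 and 1505 without virgin untreated 2, against 3390 and 3172. In multipara islets it gave 1585 and 2033 without multipara untreated 1, and 1710 and 1922 without both doubted libraries, against 3272 and 3496. The causes were not tested.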
